A study of Mus musculus with 4 samples.

Results

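The genes described here are 10 components of the G1 machinery of the cell cycle: the D-type cyclin genes Ccnd1, Ccnd2 and Ccnd3, the kinase genes Cdk4 and Cdk6, the inhibitor genes Cdkn1a, Cdkn2c and Cdkn2d, and Sertad1 and Sertad4 of the SERTA domain family. They were taken by gene symbol, with each probe set whose only annotated symbol was one of the 10, which gave 23 of 45037 probe sets and 10 of 17097 named genes. The group was chosen by known function together with values of these arrays: the log2 differences between the labels and between the replicates of a label were already known. Those differences are therefore given as a description of the arrays, and the calls counted among these genes support nothing beyond it.

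D-type cyclins bind CDK4 and CDK6, and the active kinases phosphorylate the retinoblastoma protein, which releases E2F factors and lets a cell pass from G1 into S phase. The INK4 proteins, p18 (Cdkn2c) and p19 (Cdkn2d) among them, bind CDK4 and CDK6 and block cyclin binding, while p21 (Cdkn1a) inhibits several cyclin-CDK complexes and is a classical target of p53. In the thymus, cells that have passed beta selection divide rapidly as they become CD4+CD8+ double-positive, and most double-positive cells then rest. Cyclin D3 is required for that expansion in mice. Human SERTAD1 was described as a CDK4-binding protein and E2F coactivator.

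The cells were CD4+CD8+ double-positive thymocytes sorted by flow cytometry from C57BL/6 mice, and their total RNA was hybridised to 1 Affymetrix 3' expression array per sample. The arrays fell into 2 groups of 2: those labelled hCD2-iCre x Gfi1fl/fl, in which the improved Cre recombinase under human CD2 elements, active in lymphoid cells, was combined with floxed Gfi1 alleles, and those labelled WT. Gfi1 is a zinc-finger transcriptional repressor. The labels give no age or treatment, and they describe neither the recombinase nor the floxed alleles in the WT mice, so the recombinase and the loss of Gfi1 cannot be told apart.

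The labelled target did not check the labels. The single Gfi1 probe set read 11.47 and 11.32 on the arrays labelled hCD2-iCre x Gfi1fl/fl, against 10.17 and 10.08 on the arrays labelled WT, so it was higher under the label that names the floxed gene. The sources used here do not place it relative to the floxed part, and outside that part it checks nothing. Each direction below is therefore one between labels. Array medians lay between 3.53 and 3.55 on the log2 scale. Of 13 listed double-positive genes, 11 were measured, among them Cd4, Cd8a, Cd8b1, Rag1 and Rag2, and all 11 lay above the median on all 4 arrays. It is not stated whether the replicates were separate animals. The p-values thus reflect the spread of these 4 arrays, which may be technical, and so few arrays limit the precision. All levels are log2 RMA signals, the usual background-corrected and quantile-normalized summary of a probe set's probes, which cannot be ranked between probe sets, and a fold is the ratio they imply. Such signals are compressed near the bottom of the range.

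Promoter sequence was matched by symbol in a RefSeq table of build GRCm38.p6 for 8 of the 10 genes, with 12 annotated starts. Ccnd1 and Ccnd2 had no match there, so their promoters were not searched. Windows of 250 bases before each start were searched on both strands for 4 motifs given by their letters: AAATCAC for GFI1, GTAAACA for FOXO factors, TTGGCGC or TTCCCGC for E2F, and CACACCC for KLF factors. In all 32851 promoters of the table, these letters stood in 2.75%, 3.17%, 5.62% and 6.93% of the windows, in that order. Sertad4 is shown because it had the largest difference between the labels, and Cdk4 and Cdk6 because their signals lay on opposite sides of the WT arrays. Capitals mark a motif match, and each sequence runs 5' to 3' along the gene.
Sertad4, first start, chr1:192855753-192856002, minus strand: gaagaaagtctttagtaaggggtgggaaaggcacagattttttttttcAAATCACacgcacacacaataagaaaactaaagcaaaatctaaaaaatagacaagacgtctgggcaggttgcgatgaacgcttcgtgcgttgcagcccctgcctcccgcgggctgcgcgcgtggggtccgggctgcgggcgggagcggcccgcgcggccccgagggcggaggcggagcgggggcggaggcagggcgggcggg
Sertad4, second start, chr1:192851748-192851997, minus strand: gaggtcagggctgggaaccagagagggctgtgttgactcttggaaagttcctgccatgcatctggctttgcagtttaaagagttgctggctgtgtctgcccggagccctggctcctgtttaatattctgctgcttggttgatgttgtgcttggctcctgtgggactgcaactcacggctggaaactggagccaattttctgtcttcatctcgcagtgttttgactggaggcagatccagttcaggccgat
Cdk4, chr10:127063285-127063534, plus strand: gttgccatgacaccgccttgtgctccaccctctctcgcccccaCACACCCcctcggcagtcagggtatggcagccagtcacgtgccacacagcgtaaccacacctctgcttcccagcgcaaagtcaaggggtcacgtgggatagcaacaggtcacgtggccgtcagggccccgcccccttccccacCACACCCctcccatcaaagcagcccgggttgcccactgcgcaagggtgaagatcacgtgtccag
Cdk6, chr5:3343643-3343892, plus strand: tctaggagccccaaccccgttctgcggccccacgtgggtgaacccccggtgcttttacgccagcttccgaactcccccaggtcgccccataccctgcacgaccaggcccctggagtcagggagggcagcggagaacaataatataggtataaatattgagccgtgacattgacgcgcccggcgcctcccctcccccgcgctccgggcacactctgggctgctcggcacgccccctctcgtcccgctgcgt

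The first Sertad4 window held the GFI1 letters once, at -202 to -196 from the start and on the gene's strand. The second Sertad4 window and the Cdk6 window held none of the 4 motifs. The Cdk4 window held the KLF letters at -207 to -201 and at -64 to -58. Elsewhere among the genes searched, which leave out Ccnd1 and Ccnd2, the FOXO letters stood once before the first Ccnd3 start. The E2F letters stood once each before the first Cdkn2c start and before Sertad1. No matches overlapped. A match shows that these letters are there and is not a binding site, and the lack of one says nothing of a factor beyond this window.

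Ccnd2 and Sertad4 were the genes of this group with probe sets called higher under the label hCD2-iCre x Gfi1fl/fl. With limma fitted over all 45037 probe sets, 3 of the 23 probe sets passed a Benjamini-Hochberg adjusted p of 0.05, all 3 higher and none lower, against 0.766% of all probe sets called in either direction, 0.664% higher and 0.102% lower. No filter on low values was used, so all 23 were tested: 12 lay above the array median on all 4 arrays and 4 below it on all 4. At an unadjusted p under 0.05 there were 10 of 23, against 7.64% of all probe sets. The signals of the labels did not overlap for 15 of the 23 probe sets, 10 higher and 5 lower, against 34.7% of all probe sets. Because this contrast was known when the genes were chosen, nothing is read from these shares.

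**Figure D1:**
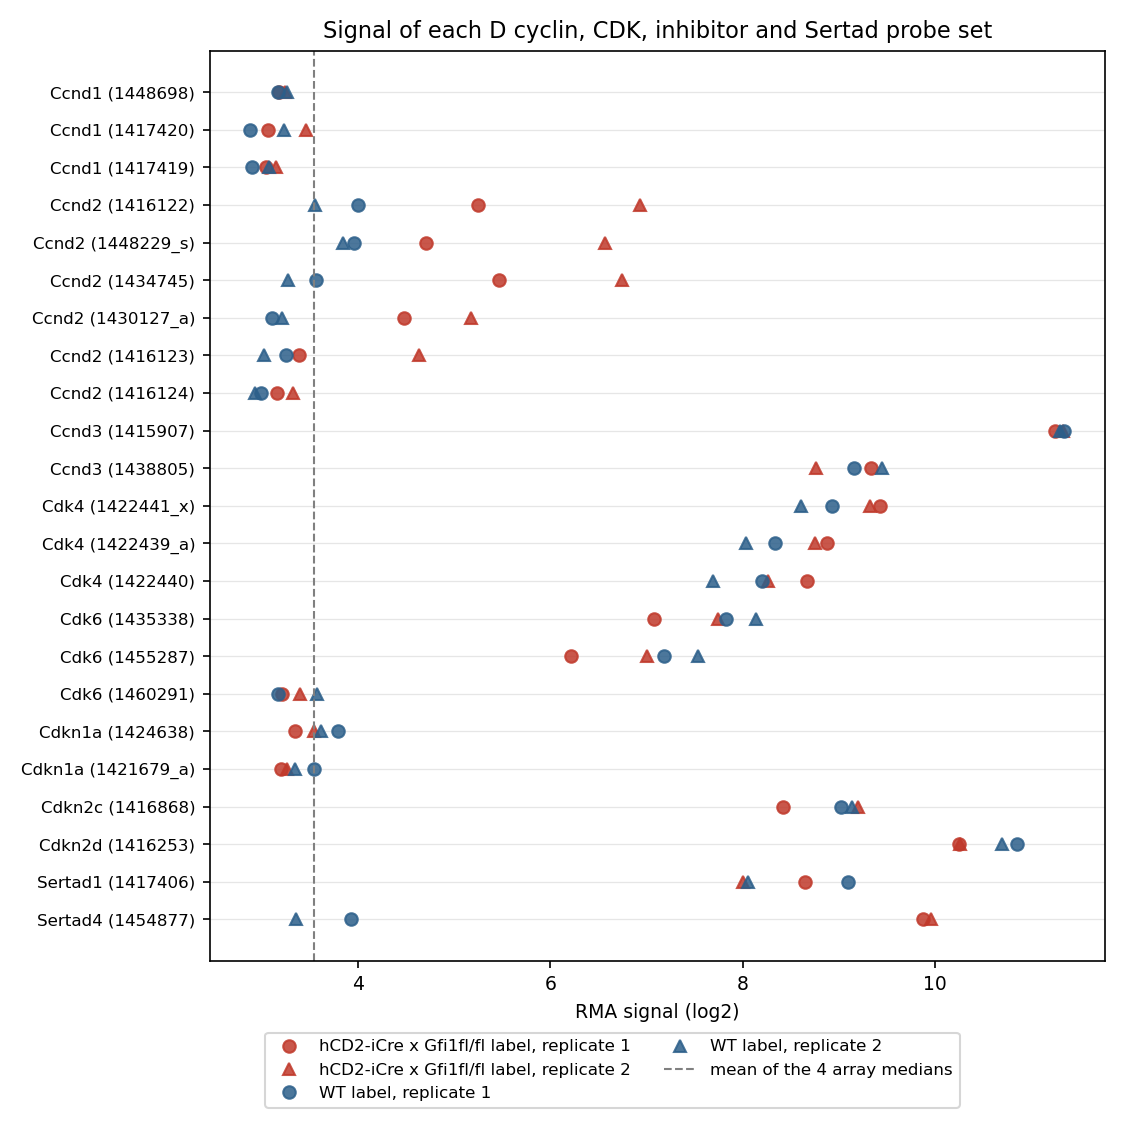
Log2 RMA signal (horizontal axis) of the 23 probe sets of the 10 genes (rows, with the probe set number), 1 point per array: red for the arrays labelled hCD2-iCre x Gfi1fl/fl, blue for the arrays labelled WT, circles for replicate 1 and triangles for replicate 2. Sertad4 stands apart at 9.88 and 9.96 on the hCD2-iCre x Gfi1fl/fl arrays, against 3.93 and 3.35 on the WT arrays, the 6 Ccnd2 rows have both red points to the right of both blue ones, and Ccnd1 stays left of the dashed line (mean array median).

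Among the D cyclins, Ccnd2 alone had probe sets called between the labels, and the arrays of the labels did not overlap on any of its 6 probe sets. Cyclin D2 is a D cyclin that cytokine and antigen-receptor signals induce in lymphocytes. Probe set 1434745_PM_at read 5.47 and 6.74 on the hCD2-iCre x Gfi1fl/fl arrays, against 3.57 and 3.27 on the WT arrays. It rose by 2.69 ± 0.41 (SE) on the log2 scale, 6.44-fold (limma, adjusted p = 0.0428). Probe set 1430127_PM_a_at read 4.48 and 5.18 on the hCD2-iCre x Gfi1fl/fl arrays, against 3.11 and 3.21 on the WT arrays, and rose by 1.67 ± 0.26 (SE), 3.17-fold (limma, adjusted p = 0.0444). On both, the WT values lay near or below the array medians, where the signal carries little information on level. Each array labelled hCD2-iCre x Gfi1fl/fl was above both WT arrays, with replicate 2 the higher of that pair. In bulk RNA, a change in the share of cells of a type and a change of RNA per cell cannot be told apart.

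The other 4 Ccnd2 probe sets lay on the same side without passing the test. The brightest, 1416122_PM_at, read 5.25 and 6.94 on the hCD2-iCre x Gfi1fl/fl arrays, against 4.005 and 3.55 on the WT arrays, a difference of 2.31 ± 0.51 (SE; limma, adjusted p = 0.172). Probe set 1448229_PM_s_at, of a type that can also read related transcripts, read 4.71 and 6.57 on the hCD2-iCre x Gfi1fl/fl arrays, against 3.96 and 3.85 on the WT arrays (difference 1.74 ± 0.54, SE; limma, adjusted p = 0.402). The dimmest 2 differed by 0.87 ± 0.36 and 0.28 ± 0.11 (SE; limma, adjusted p = 0.638 and 0.593). The 6 probe sets read 1 gene from the same 4 arrays and are not independent evidence of each other. On all 6, hCD2-iCre x Gfi1fl/fl replicate 2 was the highest array and hCD2-iCre x Gfi1fl/fl replicate 1 the next.

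How far Ccnd2 differed rested on single arrays, and its calls also on the fit. Without hCD2-iCre x Gfi1fl/fl replicate 1, which leaves 1 array of that label, the brightest probe set differed by 3.16, and without replicate 2 by 1.47. For 1434745_PM_at and 1430127_PM_a_at the call was lost without WT replicate 1 (limma, adjusted p = 0.132 and 0.207) and without WT replicate 2 (limma, adjusted p = 0.183 and 0.158). Both calls were also lost with the replicate number as a block (limma, adjusted p = 0.0973 and 0.063) and without the intensity trend in the prior variance (limma, adjusted p = 0.172 and 0.146). Over all 11 alternatives each of these was called in 7, with adjusted p between 0.00044 and 0.183 for 1434745_PM_at and between 0.00145 and 0.207 for 1430127_PM_a_at. The direction was the same in all 11.

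Cyclin D3, the D cyclin of thymocyte expansion, differed little. Its probe set 1415907_PM_at read 11.25 and 11.33 on the hCD2-iCre x Gfi1fl/fl arrays, against 11.34 and 11.30 on the WT arrays, a difference of -0.03 ± 0.11 (SE; 95% confidence interval -0.29 to 0.23). The second, 1438805_PM_at, read 9.34 and 8.76 on the hCD2-iCre x Gfi1fl/fl arrays, against 9.16 and 9.45 on the WT arrays (difference -0.26 ± 0.25, SE). In both, the arrays of the labels were interleaved. Ccnd1, the D cyclin of many epithelial and mesenchymal cells, stayed below the array median on all 4 arrays with each of its 3 probe sets, between 3.04 and 3.46 on the hCD2-iCre x Gfi1fl/fl arrays and between 2.88 and 3.26 on the WT arrays. None of the 3 was called (limma, adjusted p of at least 0.924), and a fall was not detectable at that signal.

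**Figure D2:**
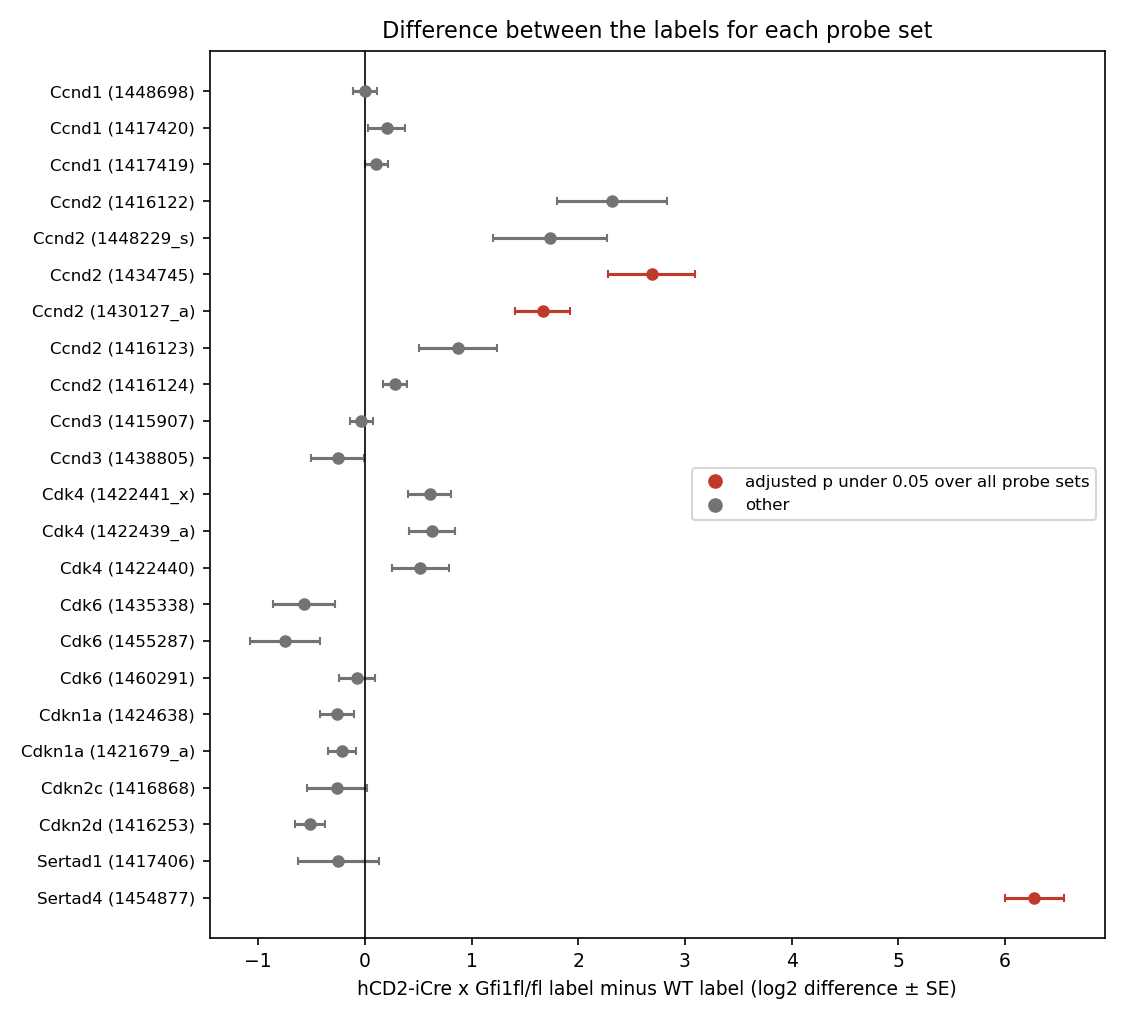
Difference between the labels, hCD2-iCre x Gfi1fl/fl minus WT, on the log2 scale for each of the 23 probe sets (points, with bars for ± 1 SE from the limma fit). Red marks the 3 probe sets past an adjusted p of 0.05: Sertad4 at 6.28 and Ccnd2 at 2.69 and 1.67. The Cdk4 points lie right of 0 and the Cdk6, Cdkn1a and Cdkn2d points left of it.

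The catalytic partners lay on opposite sides of the WT arrays, by differences that did not pass the test. Cdk4 probe set 1422441_PM_x_at, of a type whose probes can match other sequences, read 9.43 and 9.33 on the hCD2-iCre x Gfi1fl/fl arrays, against 8.93 and 8.61 on the WT arrays, a difference of 0.61 ± 0.20 (SE; limma, adjusted p = 0.454). Probe sets 1422439_PM_a_at and 1422440_PM_at differed by 0.63 ± 0.21 and 0.52 ± 0.27 (SE; limma, adjusted p = 0.479 and 0.761). On each of the 3, both hCD2-iCre x Gfi1fl/fl arrays were above both WT arrays. The 95% confidence interval of the first was 0.13 to 1.08 before adjustment.

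Cdk6, whose product shares the D cyclins with CDK4, read 7.07 and 7.75 on the hCD2-iCre x Gfi1fl/fl arrays, against 7.83 and 8.14 on the WT arrays, with 1435338_PM_at (difference -0.57 ± 0.29, SE; limma, adjusted p = 0.761). With 1455287_PM_at it read 6.22 and 7.01 on the hCD2-iCre x Gfi1fl/fl arrays, against 7.18 and 7.54 on the WT arrays (difference -0.75 ± 0.33, SE; limma, adjusted p = 0.674). Both hCD2-iCre x Gfi1fl/fl arrays were below both WT arrays on these, with hCD2-iCre x Gfi1fl/fl replicate 1 the lowest. The third probe set, 1460291_PM_at, lay between 3.17 and 3.58 on all 4 arrays, near the array medians, with interleaved values. A call between Cdk4 and Cdk6 themselves was not made, because their probe sets have no common scale.

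None of the 3 inhibitor genes was called. Cdkn2d, which encodes the INK4 protein p19, read 10.25 and 10.26 on the hCD2-iCre x Gfi1fl/fl arrays, against 10.85 and 10.69 on the WT arrays, with 1416253_PM_at. The difference was -0.51 ± 0.14 (SE; 95% confidence interval -0.84 to -0.19 before adjustment; limma, adjusted p = 0.293), with both hCD2-iCre x Gfi1fl/fl arrays below both WT arrays and nearly equal to each other. Cdkn2c, which encodes the INK4 protein p18, read 8.42 and 9.20 on the hCD2-iCre x Gfi1fl/fl arrays, against 9.02 and 9.13 on the WT arrays, so that the hCD2-iCre x Gfi1fl/fl arrays lay on either side of the WT ones (difference -0.26 ± 0.28, SE). Its difference was 0.13 without hCD2-iCre x Gfi1fl/fl replicate 1 and -0.65 without hCD2-iCre x Gfi1fl/fl replicate 2. Cdkn1a, the p21 gene, had 2 probe sets between 3.20 and 3.55 on the hCD2-iCre x Gfi1fl/fl arrays and between 3.35 and 3.80 on the WT arrays, with differences of -0.26 ± 0.16 and -0.22 ± 0.13 (SE). Taken singly, each had both hCD2-iCre x Gfi1fl/fl values below both WT values. These values straddled the array medians, where a fall was not detectable.

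Sertad4 showed the largest difference of the group. Its single probe set, 1454877_PM_at, read 9.88 and 9.96 on the hCD2-iCre x Gfi1fl/fl arrays, against 3.93 and 3.35 on the WT arrays. The hCD2-iCre x Gfi1fl/fl arrays differed from each other by 0.08 and lay far above both WT arrays, which themselves straddled the array medians. The rise was 6.28 ± 0.28 (SE) on the log2 scale, 77.5-fold (limma, adjusted p = 0.000435). It passed the test in all 11 alternatives, with log2 differences between 5.99 and 6.56. The WT level carries little information, so the fold is a ratio of signals and not of transcript amounts.

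Sertad1 differed more between replicates than between labels. Probe set 1417406_PM_at read 8.65 and 8.01 on the hCD2-iCre x Gfi1fl/fl arrays, against 9.10 and 8.06 on the WT arrays, a difference of -0.25 ± 0.38 (SE; limma, adjusted p = 0.994). Under either label replicate 1 was the higher array. Of the other SERTA genes, Sertad2 read 7.76 and 8.11 on the hCD2-iCre x Gfi1fl/fl arrays, against 8.42 and 8.59 on the WT arrays, a difference of -0.57 ± 0.22 (SE) that did not pass in the fit of 1 probe set per gene (limma, adjusted p = 0.525). Sertad3 differed by -0.04 ± 0.33 (SE), with values of 8.46 and 7.95 on the hCD2-iCre x Gfi1fl/fl arrays and 8.67 and 7.83 on the WT arrays. Its replicate 1 was the higher array under both labels, as for Sertad1. With Cdca4, 3 other family members were measured and none was called.

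The arrays of the label hCD2-iCre x Gfi1fl/fl differed strongly from each other in proliferation genes. A list of 29 S phase and G2/M genes, of which 28 were measured, averaged 8.12 on hCD2-iCre x Gfi1fl/fl replicate 1 and 9.87 on hCD2-iCre x Gfi1fl/fl replicate 2, against 8.91 on WT replicate 1 and 9.40 on WT replicate 2. All 28 were higher on hCD2-iCre x Gfi1fl/fl replicate 2 than on replicate 1, with a median difference of 1.93. The WT arrays lay between the hCD2-iCre x Gfi1fl/fl arrays. With 1 array on each side such differences have no replicate check, so they carry no p-value.

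The genes described here differed in how they compared with that list. Ccnd2 was higher on hCD2-iCre x Gfi1fl/fl replicate 2 than on hCD2-iCre x Gfi1fl/fl replicate 1, by 1.69 on the brightest probe set and by 1.85, 1.28, 0.70, 1.24 and 0.17 on the others, while between the WT arrays replicate 2 minus replicate 1 lay between -0.45 and 0.10. Cdk6 was higher on replicate 2 under both labels, by 0.67 and 0.79 on its brighter probe sets under hCD2-iCre x Gfi1fl/fl and by 0.31 and 0.35 under WT. Cdkn2c was higher on hCD2-iCre x Gfi1fl/fl replicate 2 by 0.78 and on WT replicate 2 by 0.12, and it was the only one of the 23 probe sets whose arrays stood in the order of the proliferation list, an order that 4.52% of all probe sets had. Cdk4 was lower on replicate 2 under both labels, by 0.10 to 0.41 under hCD2-iCre x Gfi1fl/fl and by 0.30 to 0.50 under WT. Cdkn2d, Sertad4 and the brighter Ccnd3 probe set differed by at most 0.08 between the hCD2-iCre x Gfi1fl/fl arrays.

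In counts, 4 of the 23 probe sets differed by at least 1 on the log2 scale (2-fold) between the hCD2-iCre x Gfi1fl/fl arrays, all of Ccnd2, against 1.73% of all probe sets. Between the WT arrays 1 did, that of Sertad1, against 1.57% of all probe sets. On hCD2-iCre x Gfi1fl/fl replicate 2, 18 of the 23 were higher than on replicate 1, against 47.8% of all probe sets. On WT replicate 2, 9 of the 23 were higher than on WT replicate 1, against 45.9% of all probe sets. With the proliferation list's mean as a covariate, which leaves 1 residual degree of freedom before moderation, 5 Ccnd2 probe sets were called instead of 2, and the brightest differed by 2.45 (limma, adjusted p = 0.00248, within a range of 0.0022 to 0.429 over its alternatives). Over all 45037 probe sets, the calls went from 345 to 824 with the same covariate. The list's mean differed by 1.75 between the hCD2-iCre x Gfi1fl/fl arrays and by 0.50 between the WT arrays. As a covariate it therefore also takes up the spread of Ccnd2 between the hCD2-iCre x Gfi1fl/fl arrays, and the added calls cannot tell the part of proliferation. That part in the difference of Ccnd2 between the labels was not tested.

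**Figure D3:**
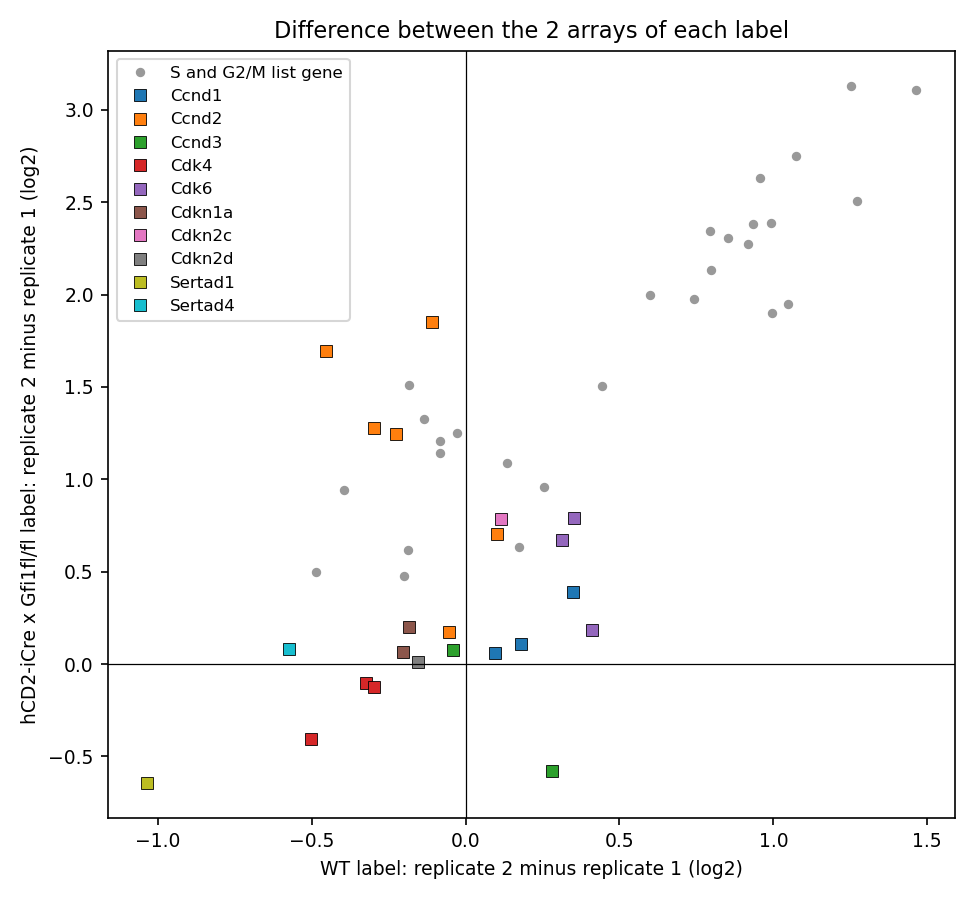
Replicate 2 minus replicate 1 on the log2 scale under the label hCD2-iCre x Gfi1fl/fl (vertical axis) and under the label WT (horizontal axis), for the 23 probe sets (coloured squares, by gene) and 28 S phase and G2/M genes (grey points). The grey points are all above 0 on the vertical axis, 4 Ccnd2 squares are above 1 there while near or left of 0 on the horizontal one, and Sertad1 is lowest on both axes.

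The remaining genes of the pathway were described by lists, with 1 probe set per gene and p-values adjusted over all 17097 genes, of which 1.11% were called. Of 57 measured genes on 5 lists, limma called 1, Klf2, and 7 had an unadjusted p under 0.05, against 8.29% of all genes. Among 11 other cyclins, CDKs and inhibitors none was called, and the median log2 difference was -0.10, against -0.02 over all genes. Ccne1 and Ccne2, which encode the E cyclins that follow the D cyclins at the G1 to S transition, had the largest differences there. Ccne1 read 6.99 and 7.80 on the hCD2-iCre x Gfi1fl/fl arrays, against 6.85 and 6.35 on the WT arrays (difference 0.79 ± 0.34, SE; limma, adjusted p = 0.607). Ccne2 read 6.29 and 8.04 on the hCD2-iCre x Gfi1fl/fl arrays, against 8.11 and 7.47 on the WT arrays (difference -0.63 ± 0.54, SE; limma, adjusted p = 0.940). Without hCD2-iCre x Gfi1fl/fl replicate 2, Ccne2 differed by -1.51 and was called (limma, adjusted p = 0.00983, within a range of 0.00983 to 1.00 over its alternatives).

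Among 13 pocket protein, E2F and DP partner genes, the direct and indirect targets of CDK4 and CDK6, none was called (median -0.05). Tfdp2, which encodes an E2F dimerisation partner, read 6.98 and 7.24 on the hCD2-iCre x Gfi1fl/fl arrays, against 7.84 and 7.92 on the WT arrays, a difference of -0.77 ± 0.22 (SE; limma, adjusted p = 0.286) that was -0.43 when its probe sets were averaged. Rbl2, which encodes the pocket protein p130 of resting cells, differed by -0.41 ± 0.23 (SE; limma, adjusted p = 0.781). For both genes the hCD2-iCre x Gfi1fl/fl arrays were below the WT arrays. Of the 13 genes, 10 were higher on hCD2-iCre x Gfi1fl/fl replicate 2 than on replicate 1, against 47.8% of all probe sets. On WT replicate 2, 9 were higher than on WT replicate 1, against 45.9% of all probe sets. Under hCD2-iCre x Gfi1fl/fl the largest such difference was that of E2f7, named after its values were seen. It read 5.14 on hCD2-iCre x Gfi1fl/fl replicate 1 and 7.75 on replicate 2.

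Among 17 measured p53 target genes, listed because Cdkn1a is one, none was called (median -0.04). Pmaip1, the gene of the death-inducing protein NOXA, read 4.52 and 5.38 on the hCD2-iCre x Gfi1fl/fl arrays, against 2.99 and 3.82 on the WT arrays, a difference of 1.54 ± 0.36 (SE; limma, adjusted p = 0.162). With the proliferation list's mean as a covariate it was called (limma, adjusted p = 0.00243, within a range of 0.000381 to 0.579 over its alternatives). Sesn1, which encodes a stress-induced inhibitor of growth signalling, differed by -0.49 ± 0.16 (SE; limma, adjusted p = 0.372). The p53 gene itself is not analysed here.

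Of 13 measured genes known to act upstream of the D cyclins or their inhibitors, 1 rose and 12 did not pass, with a median of 0.15. Klf2, a factor of T cell quiescence and migration, read 9.66 and 9.97 on the hCD2-iCre x Gfi1fl/fl arrays, against 4.70 and 4.53 on the WT arrays, and rose 36.8-fold (limma, adjusted p = 0.000301).

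**Figure D4:**
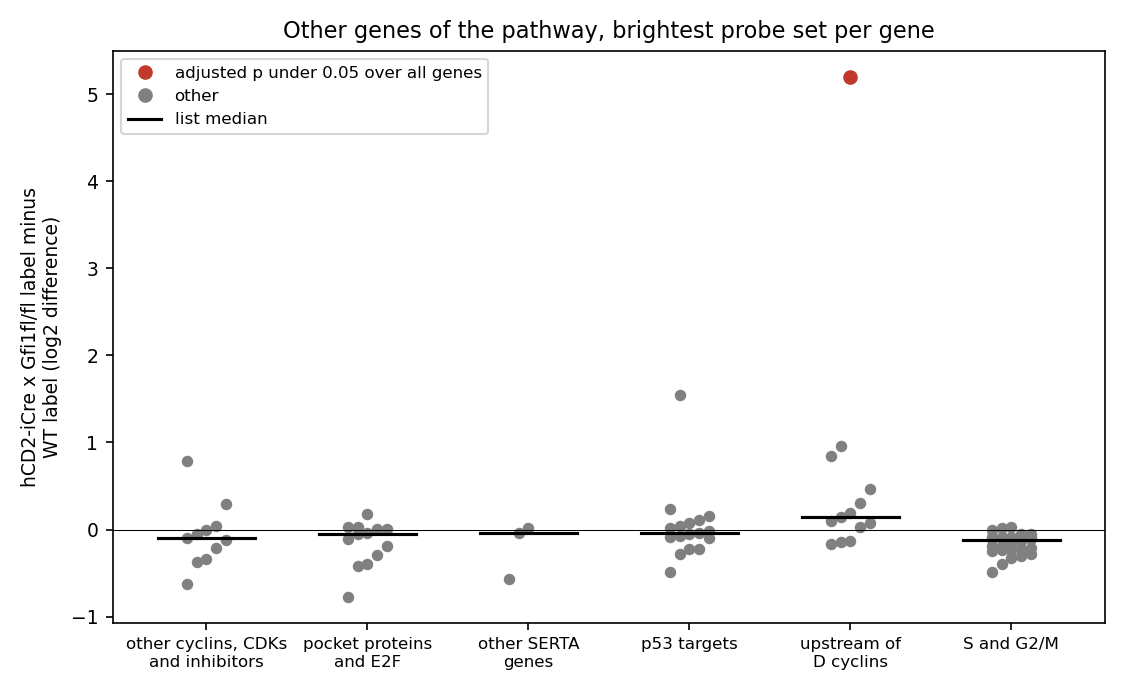
Difference between the labels, hCD2-iCre x Gfi1fl/fl minus WT, on the log2 scale for each measured gene (points) of 5 pathway lists and of the S phase and G2/M list, with the list median as a black bar. Klf2, at 5.20, is the only red point (adjusted p under 0.05 over all genes), Pmaip1 follows at 1.54, and the list medians lie between -0.12 and 0.15.

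The genes most like Ccnd2 and Sertad4 were found by the root-mean-square difference of the 4 array values, each gene centred on its own mean. Over the 4 arrays, the 5 genes nearest to the brightest Ccnd2 probe set were Ifi213, Plac8, Ifit3, Nlrc5 and Armcx4, at distances of 0.20 to 0.41 on the log2 scale. Ifi213, the nearest, read 5.86 and 7.22 on the hCD2-iCre x Gfi1fl/fl arrays, against 4.23 and 3.62 on the WT arrays. The 5 nearest to Sertad4 were Pdlim4, Klf2, Chd7, Atp8b4 and Il18r1, at distances of 0.22 to 0.70. Pdlim4 read 10.52 and 10.81 on the hCD2-iCre x Gfi1fl/fl arrays, against 4.16 and 3.93 on the WT arrays. Such a likeness rests on 4 arrays, and the number of genes that share either profile was not counted.

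Markers of other thymocyte stages that a double-positive gate could hold also differed between the labels. Among 6 measured genes of mature single-positive cells, S1pr1, Gimap4 and H2-K1 rose (limma, adjusted p = 0.0361, 0.00103 and 0.0078). The other 3 were not called: Cd5 and Gimap6 each differed by -0.42, with the hCD2-iCre x Gfi1fl/fl arrays below the WT arrays, and Cd69 by 0.13, with overlapping values. The summed signal of the list was 54.5 and 54.6 on the hCD2-iCre x Gfi1fl/fl arrays, against 48.7 and 47.2 on the WT arrays. Among 9 genes of cycling earlier thymocytes only Cd44, named after its values were seen, was called. It read 3.57 and 3.60 on the hCD2-iCre x Gfi1fl/fl arrays, against 6.81 and 6.68 on the WT arrays, with no overlap. Tfrc and Dtx1, also named after their values were seen, differed the other way without passing the test. Tfrc read 9.64 and 10.07 on the hCD2-iCre x Gfi1fl/fl arrays, against 8.73 and 8.65 on the WT arrays (difference 1.17 ± 0.20, SE; limma, adjusted p = 0.0563), and Dtx1 differed by 1.02 ± 0.53 (SE), with overlapping values. The list's sum was 58.5 and 59.9 on the hCD2-iCre x Gfi1fl/fl arrays, against 63.2 and 60.6 on the WT arrays. Of the 11 measured double-positive genes, 1 fell, Dntt, by 0.69 on the log2 scale (limma, adjusted p = 0.0413), and the list's sum was 124.1 and 122.5 on the hCD2-iCre x Gfi1fl/fl arrays, against 125.1 and 126.0 on the WT arrays. The part of these stages in the signals of Ccnd2 and Sertad4 was not tested.

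Of 37 markers of other cell types, gamma-delta T cells among them, measured on 5 lists, 20 lay below the array medians on all 4 arrays. Among the 37, 1 was called, Ctss of the myeloid list. It read 10.46 and 10.03 on the hCD2-iCre x Gfi1fl/fl arrays, against 5.96 and 5.34 on the WT arrays. The other defining myeloid genes Lyz2, Tyrobp, Csf1r and Itgam lay between 3.06 and 4.76 on the hCD2-iCre x Gfi1fl/fl arrays and between 3.02 and 4.34 on the WT arrays. Some markers were bright on all 4 arrays, named here after their values were seen. Cst3 of the myeloid list read 9.46 and 8.91 on the hCD2-iCre x Gfi1fl/fl arrays, against 9.53 and 9.28 on the WT arrays. Cd79b, Il17re, Epcam, Pecam1, Hba-a1 and Car2 of the other lists lay between 5.69 and 10.45 on the hCD2-iCre x Gfi1fl/fl arrays and between 6.06 and 10.17 on the WT arrays. For Epcam, Car2 and Cd79b the arrays of the labels did not overlap. Epcam differed by 1.68 ± 0.40, Car2 by -1.87 ± 0.42 and Cd79b by -1.23 ± 0.38 (SE), and none was called. Il17re, Pecam1 and Hba-a1 had overlapping values. Summed signals were 43.9 and 44.2 on the hCD2-iCre x Gfi1fl/fl arrays, against 40.3 and 38.3 on the WT arrays for 9 myeloid genes, and 25.04 and 24.1 on the hCD2-iCre x Gfi1fl/fl arrays, against 26.2 and 25.4 on the WT arrays for 6 B cell genes. They were 31.0 and 32.0 on the hCD2-iCre x Gfi1fl/fl arrays, against 30.2 and 30.1 on the WT arrays for 8 genes of gamma-delta, NK and innate lymphoid cells, 36.8 and 35.3 on the hCD2-iCre x Gfi1fl/fl arrays, against 35.2 and 33.3 on the WT arrays for 9 of epithelium and stroma, and 25.2 and 25.5 on the hCD2-iCre x Gfi1fl/fl arrays, against 25.5 and 27.5 on the WT arrays for 5 of erythroid cells and platelets. Each sum adds log2 signals. The myeloid sum includes Ctss, the only called gene of that list. The median log2 difference of the 9 myeloid genes was 0.03. The part of these markers in the results above was not tested.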

How the data were processed

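The authors deposited 1 log2 value per probe set and array. Per the submitters' processing notes, RMA and Affymetrix Expression Console 1.1 were used. The values lay between 2.19 and 13.5 with nearly equal quartiles on the 4 arrays. They were used without further normalization. Background and saturation per probe set could not be judged. Names came from the platform's annotation table: 28898 of 45037 had exactly 1 symbol, 551 several, and 15588 were not listed. The Entrez IDs of all 10 genes described were in the RefSeq gene table.

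The labels were compared with limma 3.58.1 (lmFit, then eBayes with an intensity trend; R 4.3.3), two-sided and with no covariate, over all 45037 probe sets, with 2 residual degrees of freedom plus 5.05 from the prior. Other genes were fitted with their brightest probe set (17097 genes). The threshold was a Benjamini-Hochberg adjusted p of 0.05, and the fit was tested on simulated data. There it called 21.5% of simulated rises of 1 and 52.25% of falls of 1 on the log2 scale, so changes of that size were often missed. It called 84.25% of rises of 2 and 90.25% of falls of 2, and 5.34% of the calls were false. All genes of the group are named, with every probe set. Of each pathway list up to 3 called genes with the largest difference were named, or 2 where none was called, beside Gfi1 as the labelled target, and for Ccnd2 and Sertad4 the 5 nearest genes. Genes and lists were chosen with earlier results of these data known. Alternatives were a replicate block, 2 other scalings, a filter on the dimmest 30%, 2 other priors, a proliferation covariate, averaging a gene's probe sets, and leaving out each array. Confidence intervals are at 95%. Figures were drawn with matplotlib 3.10.9.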

Additional observations from a re-analysis of the deposited data

How the results depend on the processing

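Sertad4 kept its direction and its call in all 11 alternatives, and Ccnd2 kept its direction. The 3 called probe sets of the group became 1 with a replicate block, 1 without the intensity trend and 6 with the proliferation covariate, and between 1 and 6 when an array was left out (6 without hCD2-iCre x Gfi1fl/fl replicate 1, and 1 without WT replicate 1 or 2). Over all probe sets, 345 calls became 205 without the trend and 824 with the covariate, and between 168 and 368 with an array left out, the 2 lowest without a WT array. A fit that leaves out an array takes the spread from the other label alone. Among the 57 pathway genes 1 call became 2 with a replicate block and 2 with the covariate (Klf2 and Pmaip1), and between 1 and 5 with an array left out: E2f7, Pmaip1, Mycn, Notch3 and Klf2 without hCD2-iCre x Gfi1fl/fl replicate 1, and Ccne2, E2f8, Pmaip1 and Klf2 without hCD2-iCre x Gfi1fl/fl replicate 2. With a replicate block, the adjusted p was 0.0973 and 0.063 for the 2 called Ccnd2 probe sets (0.172 and 0.146 without the trend) and 0.0312 for Pmaip1. The replicate numbers are not stated to pair samples. Replicate 2 minus replicate 1 correlated between the labels (Pearson r = 0.30 across probe sets, which are not independent). The Gfi1 call was lost without WT replicate 2 (limma, adjusted p = 0.0501, within a range of 0.000145 to 0.0501 over its alternatives).

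Some differences that were not called in the main fit changed sign when an array was left out. For these the lowest and highest values were -0.050 and 0.0445 for Ccnd1 (1448698_PM_at, 0.0043 with the covariate), -0.0694 and 0.0045 for Ccnd3 (1415907_PM_at), -0.55 and 0.0345 (1438805_PM_at), -0.28 and 0.13 for Cdk6 (1460291_PM_at), -0.65 and 0.13 for Cdkn2c, -0.77 and 0.27 for Sertad1, -0.46 and 0.38 for Sertad3, and -1.51 and 0.24 for Ccne2. The other probe sets of the group kept their sign. When a gene's probe sets were averaged, the proliferation list averaged 8.05 and 8.53 on WT replicates 1 and 2. On hCD2-iCre x Gfi1fl/fl replicates 1 and 2 it averaged 7.31 and 8.96. Each array's mean was lower than with the brightest probe sets, and the order of the arrays was the same. Causes of these changes were not tested.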

Other observations

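Within the proliferation list, the arrays of a label differed in other ways under hCD2-iCre x Gfi1fl/fl than under WT. Of its 28 measured genes, all 28 were higher on hCD2-iCre x Gfi1fl/fl replicate 2 than on hCD2-iCre x Gfi1fl/fl replicate 1, whereas on WT replicate 2 the count was 19 higher and 9 lower than on WT replicate 1. The 9 lower ones, named after their values were seen, were Mcm2, Mcm3, Mcm5 and Mcm7, subunits of the replicative helicase, Cdc6, Cdt1 and Gmnn, which license origins or restrain licensing, and Rrm1 and Tyms of nucleotide synthesis. They lay between -0.48 and -0.03 there, and other replication genes of the list were higher on WT replicate 2, Mcm4 by 0.25, Mcm6 by 0.14, Pcna by 0.17 and Rrm2 by 0.44. Replicate 2 minus replicate 1 was 0.50 for Mcm2 and 0.94 for Tyms under hCD2-iCre x Gfi1fl/fl, against -0.48 and -0.39 under WT. For the mitotic genes Plk1 and Cenpe it was 2.75 and 3.10 under hCD2-iCre x Gfi1fl/fl, against 1.07 and 1.46 under WT. For the E cyclin genes it was 0.81 for Ccne1 and 1.75 for Ccne2 under hCD2-iCre x Gfi1fl/fl, against -0.50 and -0.64 under WT. Each of these differences sets 1 array against 1 and has no replicate check, and the difference between the labels was not tested.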
